A study of Homo sapiens with 288 samples.

Results

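VTCN1, ENPEP and GABRP are genes of proteins of the cell surface, examined here in single cells of an endothelial (EC) and a trophoblast-like (TB) differentiation of human embryonic stem cells. Of these 3 genes, VTCN1 and ENPEP were chosen by their values in the EC and TB libraries themselves, so their EC and TB levels are given as a description and were not tested. They were matched by symbol and Ensembl identifier among 17492 genes, and GABRP was not analysed here.

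Both cell types were derived from H1, an established line of human embryonic stem cells. EC were cultured with 5 ng/ml BMP4 and 25 ng/ml Activin A for 2 days and then with VEGF and a WNT supplement for 3 days. TB were cultured in E7 medium, which is E8 medium without FGF2, with 50 ng/ml BMP4 and SB431542, an inhibitor of Activin and Nodal receptors. Full-length cDNA of 45 EC and 51 TB cells, captured singly on the Fluidigm C1 device, was brought to the same input amount and sequenced in 3 experiments of these 96 cells. EQ pooled equal volumes of the libraries, EQ-Vary pooled variable volumes, and EQ-75% was a repeat of EQ at a nominal 75% of its depth. Each cell type in each experiment is 1 sample, since no separate cultures are named, so the SDs below describe cells, not cultures, and no p-values are given. After the study's limits on depth and on the share of abundant genes, 38 EC and 48 TB cells remained in EQ, 38 and 46 in EQ-Vary, and 39 and 50 in EQ-75%. Total counts of these cells ranged from 291377 to 6345186. The median total in EQ and EQ-75% was 2025166 and 1499278 in EC, and 1968586 and 1765270 in TB.

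VTCN1 encodes B7-H4, a ligand of the B7 family that restrains T cells. It is known from secretory epithelia and several carcinomas, and in development from trophoblast and amnion. ENPEP encodes glutamyl aminopeptidase, a zinc enzyme anchored in the membrane that removes the N-terminal acidic residue of peptides and converts angiotensin II to angiotensin III. It is abundant in kidney and placenta. GABRP encodes the pi subunit of the GABA-A receptor, a chloride channel, and is expressed mainly in epithelia. BMP4 treatment of human pluripotent stem cells while Activin signalling is blocked gives epithelial cells whose identity, as trophoblast or as amnion, is debated. Genes of both tissues were therefore examined beside VTCN1 and ENPEP.

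VTCN1 (ENSG00000134258) lies on the minus strand of chromosome 1 at positions 117143587 to 117210960 of GRCh38, and its canonical transcript has 6 exons and 2605 exonic bases. ENPEP (ENSG00000138792) lies on the plus strand of chromosome 4 at positions 110365733 to 110565285, and its canonical transcript has 20 exons and 6861 exonic bases. The 250 bases before the RefSeq start of each gene (GRCh38.p14) are shown because both genes had higher means in TB than in EC. The VTCN1 window overlaps the VTCN1 span given above from 117210928 to 117210960. The ENPEP window lies inside the span given above, since GENCODE assigns to the gene a transcript with no defined coding sequence that starts earlier, and RefSeq places the start at that of the protein-coding transcript. Capitals mark matches, on either strand, to the letters TATAA (TATA box), GATAA (GATA factors), GCCNNNGGC (AP-2 factors) and GGAATG (TEAD factors).
VTCN1, chr1:117210928-117211177, minus strand: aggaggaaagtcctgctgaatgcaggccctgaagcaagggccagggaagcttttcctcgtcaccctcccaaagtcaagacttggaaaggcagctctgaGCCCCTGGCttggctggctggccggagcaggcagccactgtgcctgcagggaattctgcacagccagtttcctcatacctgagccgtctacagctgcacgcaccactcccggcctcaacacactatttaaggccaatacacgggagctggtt
ENPEP, chr4:110475905-110476154, plus strand: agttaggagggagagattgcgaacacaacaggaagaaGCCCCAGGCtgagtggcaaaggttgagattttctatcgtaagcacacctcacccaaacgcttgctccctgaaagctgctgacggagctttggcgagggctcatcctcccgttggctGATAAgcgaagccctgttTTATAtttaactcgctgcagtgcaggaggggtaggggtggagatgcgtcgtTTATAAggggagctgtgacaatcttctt
Both windows held 1 AP-2 match, from 152 to 144 bases before the start in VTCN1 and from 213 to 205 bases in ENPEP, and 19.8% of 35114 promoter windows of this length held one. The ENPEP window also held 1 GATA match, from 97 to 93 bases before the start, and 3 TATA matches, of which 2 overlap between 28 and 23 bases before the start. GATA letters were in 20.4% of all windows and TATA letters in 18.9%. Neither window held the TEAD letters, which were in 11.9% of all windows. GC content was 58.4% in VTCN1 and 52.0% in ENPEP, with a median of 58.0% over all windows. These are matches of letters only.

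VTCN1 was abundant in every TB cell of EQ. Its level in CPM, the count scaled to a total of 1000000 per cell, was 140.1 in the lowest TB cell, 1115 in the median cell and 2403 in the highest, with a mean of 1142 ± 468 (SD, n = 48 cells). By mean level it was gene number 97 of 17492 in TB. A level of at least 500 CPM was found in 47 of the 48 cells and a level of at least 1000 CPM in 29, so 1 cell, TB 5, stood below the rest. In EC the lowest, median and highest levels were 0.834, 3.24 and 17.1 CPM, with a mean of 3.64 ± 2.77 (SD, n = 38 cells). The lowest TB cell was therefore above the highest EC cell. Of 12752 genes with a mean of at least 1 CPM in either type, 14 (0.11%) had every TB cell above every EC cell in EQ. The ratio of the means, TB over EC, was 314 and the log2 ratio with a pseudocount of 1 was 7.94, number 3 of the 12752 genes.

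VTCN1 levels were alike in the other experiments, which sequenced the cDNA of the same cells. The TB mean was 1174 ± 465 CPM in EQ-Vary (SD, n = 46 cells), against 3.67 ± 3.85 in EC (n = 38 cells). In EQ-75% it was 1114 ± 489.8 CPM (SD, n = 50 cells), against 2.70 ± 1.78 in EC (n = 39 cells). The log2 ratio was 7.98 in EQ-Vary and 8.23 in EQ-75%. EC and TB did not overlap in EQ-Vary either, where the lowest TB cell had 125 CPM and the highest EC cell 20.1. In EQ-75% the gap was narrow, 9.21 against 7.71 CPM, and rested on TB 48, a cell that passed the limits in EQ-75% alone. Without TB 48 the lowest TB level in EQ-75% was 113 CPM and the mean 1136 ± 468 (SD, n = 49 cells).

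ENPEP was higher in TB than in EC as well, but varied widely between TB cells. In EQ the lowest, median and highest TB cells had 2.93, 148 and 935 CPM, and the mean was 268 ± 259.7 CPM (SD, n = 48 cells). The quartiles of the TB cells were 65.2 and 413 CPM. Fewer than 20 CPM were found in 8 cells and fewer than 100 CPM in 17 cells, while 8 cells had at least 500 CPM. In EC the median was 0.721 CPM and the highest level 26 CPM, with a mean of 2.15 ± 4.90 (SD, n = 38 cells). The cell types overlapped, with 9 TB cells at or below the highest EC cell and 5 EC cells at or above the lowest TB cell. The log2 ratio was 6.41, number 40 of the 12752 genes. Both genes were past 4-fold in TB in EQ, as were 1392 of the 12752 genes (10.9%), and 998 genes (7.83%) were past 4-fold in EC.

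For ENPEP the TB mean was 275 ± 273 CPM in EQ-Vary (SD, n = 46 cells) and 297 ± 284 in EQ-75% (n = 50 cells). The EC means were 1.94 ± 4.53 (n = 38 cells) and 1.83 ± 4.15 CPM (n = 39 cells), which gives log2 ratios of 6.56 and 6.72. Without TB 48 the EQ-75% mean in TB was 304 ± 284 CPM (n = 49 cells). Per kilobase of the canonical transcript, the mean TB level in EQ was 439 CPM for VTCN1 and 39.1 CPM for ENPEP, a ratio of 11.2 on this scale, with 11.2 in EQ-Vary and 9.86 in EQ-75%.

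**Figure D1:**
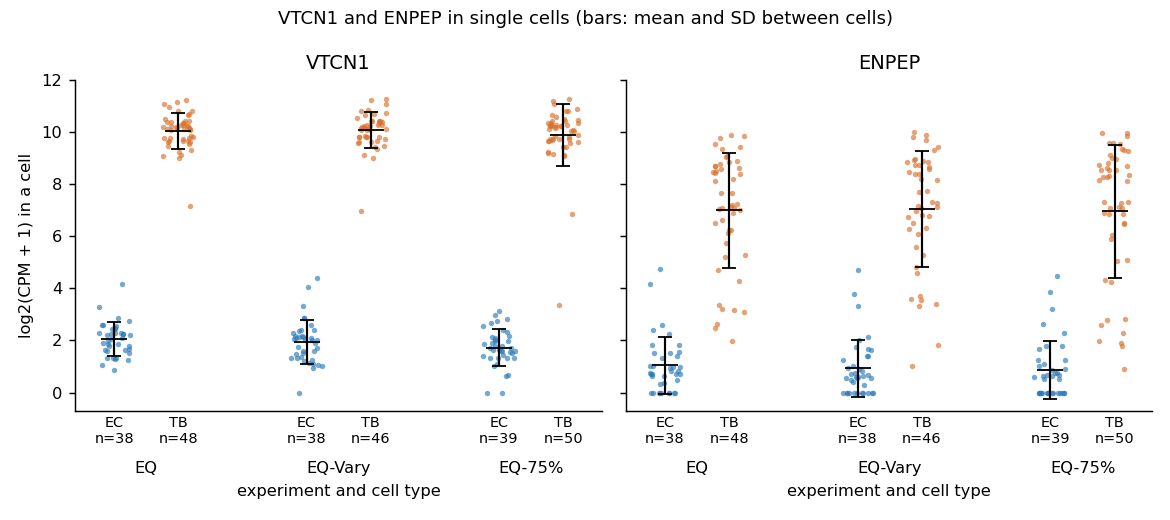
Level of VTCN1 (left) and ENPEP (right) as log2(CPM + 1) in each passing EC (blue) and TB (orange) cell of the 3 experiments, with the mean and the SD between cells in black. VTCN1 separates the types, with TB 5 low in each experiment and TB 48 lowest in EQ-75%, while ENPEP in TB reaches down to the EC levels.

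The spread between TB cells was narrower for VTCN1 than for ENPEP. The CV of VTCN1, the SD as a percentage of the mean, was 41% (EQ), 39.6% (EQ-Vary) and 44% (EQ-75%). Of the 216 other genes with a TB mean within 2-fold of that of VTCN1 in EQ, 35.6% had a lower CV, and their median was 47.1%. The CV of ENPEP was 96.9%, 99.0% and 95.6%. In EQ 83.5% of 1323 genes within 2-fold of its mean had a lower CV, with a median of 75.8%. Pearson's r of log2(CPM + 1) with log10 total count over the 48 TB cells was 0.02 for VTCN1 and -0.07 for ENPEP.

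The order of the TB cells was largely kept when their cDNA was made into libraries again. Between EQ and EQ-75%, the difference within a cell in log2(CPM + 1) was 0.02 ± 0.12 for VTCN1 (mean ± SD, n = 47 TB cells), beside an SD of 0.69 between the cells in EQ. For ENPEP it was 0.03 ± 0.49 beside an SD between cells of 2.22. Pearson's r across the 47 cells was 0.98 for VTCN1 and 0.99 for ENPEP, and the libraries of a cell share its amplified cDNA. Between EQ and EQ-Vary, the SD within a cell was 0.07 for VTCN1 and 0.34 for ENPEP (n = 46 TB cells). The range of ENPEP over TB cells was thus wider than the difference between libraries of a cell. Variation in capture and amplification of the cDNA is common to the 3 experiments and cannot be told apart from variation between cells.

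**Figure D2:**
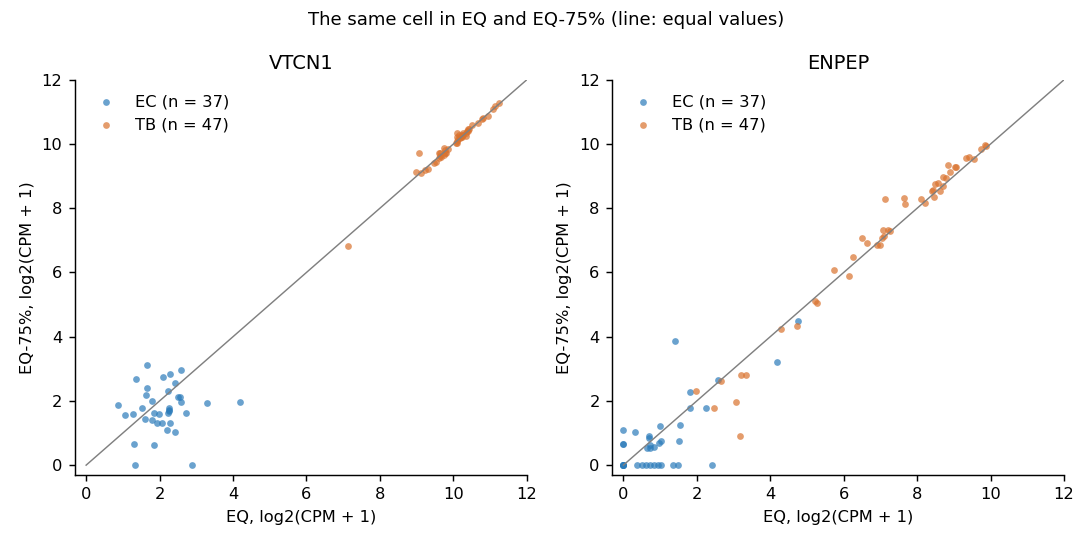
Levels of VTCN1 (left) and ENPEP (right) of the same cell in EQ (x axis) and EQ-75% (y axis), as log2(CPM + 1), with 37 EC cells in blue, 47 TB cells in orange and the line of equal values in grey. TB cells lie along the line for both genes, and EC cells scatter for VTCN1.

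VTCN1 and ENPEP were each detected, with at least 1 rounded count, in 48 of 48 TB cells in EQ (100%, exact 95% binomial interval 92.6 to 100). Such an interval describes the sampling of cells, taken as independent draws, and does not cover differences between cultures. Detection in TB was also 100% in EQ-Vary and EQ-75%. In EC, VTCN1 was detected in 38 of 38 cells (EQ), 37 of 38 (EQ-Vary) and 37 of 39 (EQ-75%). Its counts there were low, between 1 and 19 in EQ with a median of 5, against 197 to 5767 in TB. ENPEP was detected in 29 of 38 EC cells of EQ (76.3%, interval 59.8 to 88.6), 27 of 38 of EQ-Vary and 23 of 39 of EQ-75%. At 500000 counts per cell, which 37 EC cells reached, VTCN1 was detected in 30 (81.1%) and ENPEP in 19 (51.4%). Both remained detected in all 46 TB cells that reached this depth.

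The EC level of VTCN1 was a small share of its TB level. In EQ the EC mean was 0.319% of the TB mean, with 0.312% in EQ-Vary and 0.242% in EQ-75%. Among the 956 genes with a TB mean of at least 200 CPM in EQ, a limit set after the values were seen, the median share was 79.3%. The lowest was 0.228%, for DHRS3. Of these genes, 29 had a share under 1%, with a median of 0.334%, so the low share was not particular to VTCN1. Endothelial genes also had counts in TB, and the 15 markers were detected in between 0 (CLDN5) and 48 (PECAM1 and KDR) of 48 TB cells. Median depths were 2025166 counts in EC and 1968586 in TB. VTCN1 also had 10 of 38648 counts, or 259 CPM, in the 3 EC libraries of EQ that held under 100000 counts and did not pass. Within an EC cell, the VTCN1 levels of EQ and EQ-75% had an r of 0.09 (n = 37 cells), and the SD of the difference was 0.92 beside an SD between cells of 0.64. Between EQ and EQ-Vary r was 0.52 and the SD of the difference 0.75 (n = 38 cells). The r of the VTCN1 count with the total count over EC cells was 0.35 (EQ), 0.66 (EQ-Vary) and 0.32 (EQ-75%). EC and TB libraries were pooled together in each experiment, and the source of these counts was not tested.

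ENPEP counts in EC were concentrated in a few cells. Its EC mean was 0.804% of its TB mean (EQ), and this share was 0.703% for EQ-Vary and 0.614% for EQ-75%. EC 16 had 49, 37 and 31 counts in the 3 experiments, in the order EQ, EQ-Vary and EQ-75%, which are 26, 24.7 and 21.4 CPM, the highest value of the EC cells in each experiment. EC 28 had 17.1, 12.8 and 8.33 CPM, and EC 2 had 4.98, 8.97 and 5.24 CPM. EC 4 was above EC 28 in EQ-75%, with 13.7 CPM from 6 counts. The fifth highest EC cell had between 3.02 and 3.89 CPM. Together EC 16 and EC 28 held 71 of the 142 ENPEP counts of EC in EQ. The summed level of EC was 1.81 CPM with them and 0.944 CPM without (exact 95% Poisson interval 0.737 to 1.19). In summed counts of EQ there were 4.55 VTCN1 counts per ENPEP count in TB, 1.77 in EC and 3.38 in EC without EC 16 and EC 28. EC 16 was not high in genes of TB in EQ, with 3.71 CPM of VTCN1 (number 16 of 38 EC cells), 1.06 CPM of PAPPA2 (number 32) and 1.06 CPM of KRT19 (number 33). It had the endothelial genes PECAM1 at 704 CPM (number 30 of 38), KDR at 749 CPM (number 34) and CDH5 at 399 CPM (number 15). EC 28 had 3.89 CPM of VTCN1 (number 12), 6.22 CPM of PAPPA2 (number 3) and 2.33 CPM of KRT19 (number 21) in EQ. In EQ-Vary EC 28 had no count of PAPPA2. EC 2 was number 1 of the EC cells in KRT19 in EQ, with 81.5 CPM, and number 4 in KRT8, with 279 CPM. It was number 35 in LUM and number 36 in PAPPA2. EC 23 was number 4 in ENPEP in EQ, with 4.28 CPM from 3 counts. This cell was number 1 in VTCN1, PAPPA2, LUM and HAND1, and also in CDH5.

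Between TB cells, VTCN1 and ENPEP were at most weakly related. Pearson's r of log2(CPM + 1) was 0.26 in EQ (n = 48 cells), 0.24 in EQ-Vary (n = 46) and 0.33 in EQ-75% (n = 50), values that share cells and cDNA. Spearman's rho was between 0.28 and 0.29. Without TB 5 and TB 10, the cells farthest from the median VTCN1 level, r in EQ was 0.35. Without TB 48, r in EQ-75% was 0.18, and with size factors in place of CPM r in EQ was 0.13. The 8 TB cells with under 20 CPM of ENPEP in EQ had VTCN1 between 539 and 1238 CPM.

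**Figure D3:**
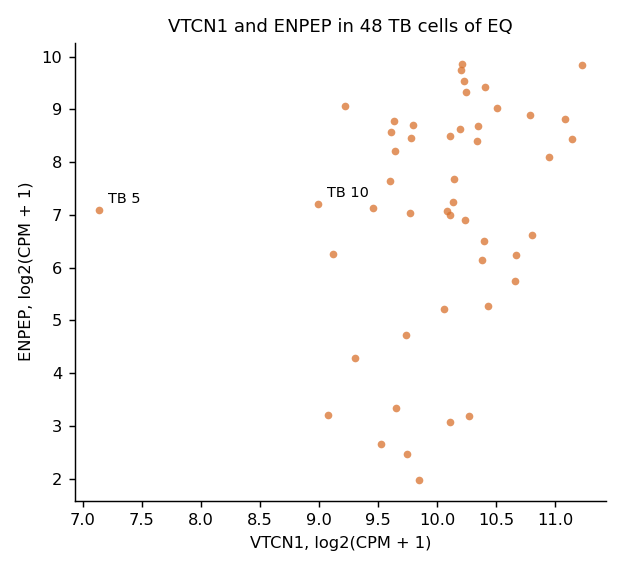
VTCN1 (x axis) against ENPEP (y axis) as log2(CPM + 1) in the 48 passing TB cells of EQ, one point per cell. ENPEP spans most of its range at VTCN1 values near the median (r = 0.26), and TB 5 lies apart at the low end of VTCN1.

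The TB label was compared with marker genes of trophoblast, amnion and other tissues, on lists chosen with earlier results of these data known. Genes are counted below among those with a mean of at least 1 CPM in either type in EQ. Over all 12752 such genes the median log2 ratio was 0.07, and 10.9% were past 4-fold in TB and 7.83% in EC. The counts of each list stand beside these shares, and a count among few genes says little. Of 9 genes shared by trophoblast and amnion, 6 were at least 4-fold higher in TB and none in EC, with a median log2 ratio of 3.19. The simple-epithelium keratins KRT18 and KRT8 had 1926 ± 1278 and 1259 ± 806 CPM in TB (SD, n = 48 cells), and 327 and 137 CPM in EC. KRT19 had 944 CPM against 5.57, and KRT7 25.3 against 0.0336. The transcription factor HAND1 had 219 CPM in TB and 0.732 CPM in EC, and TFAP2C, an AP-2 factor, had 388 and 29.3 CPM. GATA3 at 236 against 120.0 CPM, TFAP2A at 229 against 70.7 CPM and GATA2 at 38.2 against 65.7 CPM were under 4-fold.

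Amnion genes were mostly higher in TB. Of 9 measured, 7 were past 4-fold in TB and none in EC, with a median log2 ratio of 2.95. ITGB6, an integrin subunit of epithelia, had 268 ± 383 CPM in TB (SD, n = 48 cells) and was detected in each TB cell, against 0.643 CPM in EC. TFAP2B had 99.4 against 0.266 CPM, and the homeobox gene ISL1 had 103 against 12.4 CPM with detection in 42 of 48 TB cells. IGFBP3 had 68.7 CPM in TB, CLDN10 59.7 CPM and NPNT 37.5 CPM, while HEY1 was under 4-fold with 88.9 CPM in TB and 149 in EC.

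Genes of the trophoblast lineages were mixed. In the villous cytotrophoblast list, 10 genes had rows, 7 passed the minimum level and 4 of these were past 4-fold in TB, with a median log2 ratio of 2.16. These were NR2F2 (182 against 9.07 CPM), PEG10 (68.7 against 6.47 CPM), TP63 (5.58 CPM, detected in 5 of 48 TB cells) and BCAM (4.02 against 0.121 CPM). ELF5 had 3.43 CPM in TB and 1.68 in EC, ITGA6 had 28.6 and 41.1, TEAD4 had 3.32 and 13, PAGE4 was listed at 0 in every cell, and CDX2 was detected in 1 TB cell. In the syncytiotrophoblast list, 8 genes had rows, 4 passed the minimum and 1 was past 4-fold, HSD3B1, a steroid-producing enzyme, at 81.2 ± 273 CPM (SD, n = 48 cells) with detection in 26 TB cells. The hormone gene CGA had 2.93 CPM in TB and 1.44 in EC, GCM1 had 5.43 and 7.05 and INSL4 1.46 and 1.82. CGB5 was detected in 2 TB cells, and CGB3 and CSH1 had no count in any cell. In the extravillous list, 1 of 4 genes was past 4-fold in TB and 2 in EC. PAPPA2, a protease of IGF-binding proteins, had 1074 ± 640.4 CPM in TB (SD, n = 48 cells) and 3.24 in EC, a log2 ratio of 7.99 beside 7.94 for VTCN1. MMP2, a matrix protease, had 79.4 and 24.2 CPM. ITGA5 and ITGA1 were higher in EC, with 418 against 12.9 CPM and 36.7 against 1.94 CPM.

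Markers of other cell types were also compared. Of 15 endothelial genes, 14 were past 4-fold in EC, with a median log2 ratio of -6.37, and their summed level was 3.43 to 100.1 CPM over the TB cells and 579 to 9827 CPM over the EC cells. KDR, a VEGF receptor, had 4.27 CPM in TB and 1600.1 in EC, and PECAM1 had 15 and 1317 CPM. EGFL7 had 2.55 CPM and EMCN 2.06 CPM in TB. In the list of mesoderm and stroma, 3 of 4 genes past the minimum were higher in TB. These were the matrix genes LUM (3041 ± 2423 CPM in TB, 10.2 in EC), COL3A1 (735 and 2.41 CPM) and DCN (429 and 1.87 CPM), each detected in 48 of 48 TB cells, while PDGFRA had 7.28 and 11.8 CPM and TBXT, MIXL1 and EOMES were at 0 in every cell. The summed level of this list was 464 to 10355 CPM over the TB cells and 2.46 to 399 CPM over the EC cells. Of 7 pluripotency genes past the minimum, 1 was past 4-fold in TB, L1TD1 at 426 against 37.2 CPM. LIN28A had 287 and 279 CPM, DPPA4 95.5 and 33.6, and NANOG 34 and 83.2. POU5F1 had 13.4 CPM in TB and 28.5 in EC, and SOX2 was detected in 2 TB cells. The pluripotency sum was 199 to 1639 CPM in TB and 118 to 3420.2 CPM in EC. VTCN1 and ENPEP were thus found in cells with keratins, amnion genes, stromal matrix transcripts and trophoblast-list genes such as PAPPA2, NR2F2 and PEG10. HSD3B1 was detected in 26 of 48 TB cells, with a median of 0.531 CPM. Other trophoblast-list genes, such as ELF5, TEAD4, ITGA6, GCM1 and INSL4, were not past 4-fold in TB, and ITGA1 and ITGA5 were higher in EC. Counts of chorionic gonadotropin genes were few, and the TB label is kept here as the study's name. The part of these other transcripts in the VTCN1 and ENPEP values was not tested.

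**Figure D4:**
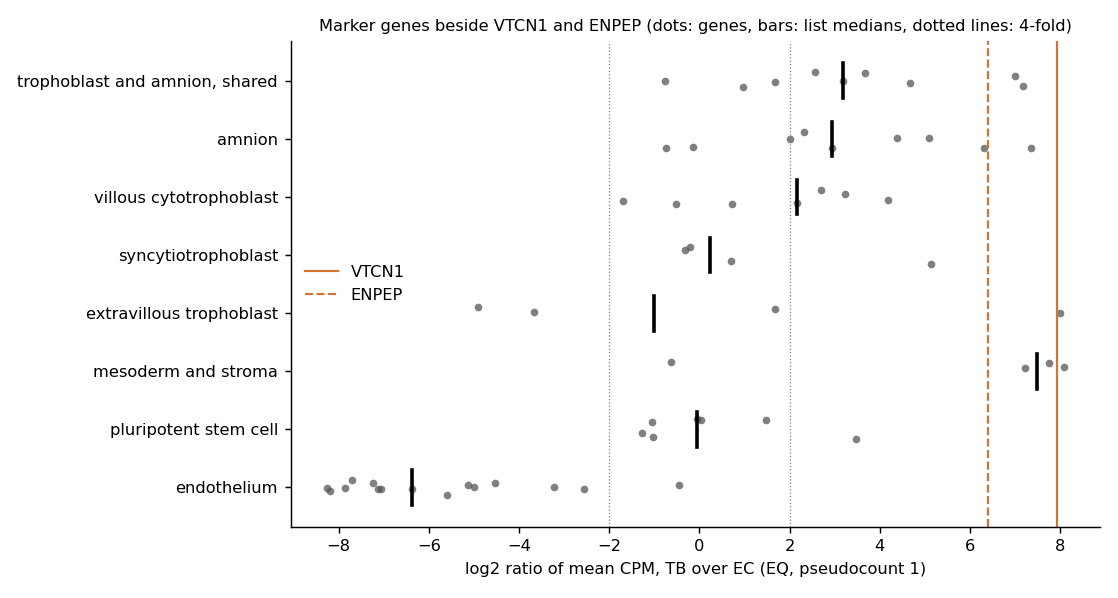
Log2 ratio of mean CPM, TB over EC in EQ (x axis, pseudocount 1), for each marker gene with a mean of at least 1 CPM in either type, by list, with list medians as black bars and VTCN1 and ENPEP as orange lines. Dotted lines mark 4-fold. The shared and amnion lists have medians of 3.19 and 2.95, the endothelial list -6.37, and VTCN1 (7.94) and ENPEP (6.41) lie to the right of most markers.

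Within TB, the levels of VTCN1 and ENPEP were compared with the summed CPM of each marker list. Over the 48 TB cells of EQ, r of VTCN1 with the summed CPM of a list was -0.07 for the shared list, 0.02 for amnion, -0.14 for villous cytotrophoblast, -0.02 for syncytiotrophoblast and 0.30 for extravillous trophoblast. For ENPEP the same values were -0.11, 0.19, -0.05, -0.02 and 0.19. ENPEP had an r of 0.26 with the list of mesoderm and stroma (0.23 in EQ-Vary and 0.37 in EQ-75%), 0.25 with endothelium (0.16 and 0.40) and 0.42 with the other B7 genes (0.43 and 0.39). VTCN1 had 0.14, -0.07 and 0.16 with these lists in EQ. The extravillous value of VTCN1 was 0.36 in EQ-Vary and 0.55 in EQ-75%, where TB 48 is included. In this list the sum is mostly PAPPA2, which had r = 0.31 with VTCN1 in EQ.

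The genes most like VTCN1 over the 48 TB cells, among 9483 detected in at least 50% of them, were KLK6, a secreted serine protease (r = 0.49), SMAD2, a mediator of Activin signalling (0.48), RAB11FIP4 (0.47), NUDT7 (0.47) and CLMP, an adhesion molecule (0.46). The values for these genes were 0.41, 0.48, 0.51, 0.45 and 0.50 in EQ-Vary and 0.30, 0.32, 0.29, 0.18 and 0.50 in EQ-75%. Without TB 5 and TB 10, r in EQ was 0.22 for SMAD2 and 0.21 for CLMP, so these values rested on the outlying cells, and 0.54 for KLK6 and 0.58 for NUDT7. The genes most like ENPEP were the peptidase DPP9 (r = 0.63), LMCD1 (0.57), SPATA13 (0.56), DMC1 (0.54) and LONRF2 (0.54). In EQ-75% they had 0.43, 0.55, 0.48, 0.48 and 0.36, and in EQ-Vary 0.46, 0.52, 0.32, 0.31 and 0.16. For comparison, 97.5% of the 9483 genes were at or below 0.27 for VTCN1 and 0.40 for ENPEP in EQ. The 5 genes were picked as the highest of many values, so their r is high by the choice itself.

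No other measured gene of the B7 family was past 4-fold in TB with the pseudocount of 1. Of 9 other B7 family genes, 6 passed the minimum and 1 was past 4-fold in EC, with a median log2 ratio of -0.88. Over all 12752 genes past the minimum, 10.9% were past 4-fold in TB and 7.83% in EC. At these shares a list of 6 genes can hold none in TB, so the count does not set VTCN1 apart in its family. CD276, or B7-H3, had 26 ± 43.2 CPM in TB (SD, n = 48 cells) and 105 ± 156 in EC (n = 38 cells). ICOSLG, the ligand of the costimulator ICOS, had 19.8 ± 13.2 and 51.7 ± 76.9 CPM, NCR3LG1 had 2.90 CPM in TB and CD86 2.40 CPM in TB, with counts in 5 cells. The EC mean of CD86 was 0.00955 CPM, a plain ratio of 251 at a log2 ratio of 1.75 with the pseudocount. The past-4-fold gene in EC was the checkpoint gene VSIR, with 7.59 CPM against 0.247. CD274, which encodes PD-L1, was detected in 2 TB and 3 EC cells, and CD80, PDCD1LG2 and HHLA2 had no count in any cell.

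Beside ENPEP, no measured gene of the angiotensin pathway or of surface peptidases was past 4-fold in TB with the pseudocount of 1. Of 11 others with rows, 7 passed the minimum and 2 were past 4-fold in EC, with a median log2 ratio of -0.19. The shares over all 12752 genes were 10.9% in TB and 7.83% in EC, so a list of 7 genes can hold none in TB. ATP6AP2, an accessory subunit of the vacuolar proton pump, had 277 ± 209 CPM in TB and 160.2 ± 165 in EC. The oxytocinase LNPEP had 73.0 and 38.4 CPM, and MAS1, the receptor of angiotensin 1-7, 10.3 and 11.9 CPM. DPP4, a dipeptidyl peptidase, had 2.86 CPM in TB with counts in 21 of 48 cells and no count in 38 EC cells, which is a log2 ratio of 1.95 with the pseudocount. ECE1, the endothelin-converting enzyme, was higher in EC with 86.4 against 12.9 CPM, and so was ANPEP with 6.77 against 0.0361 CPM. ACE, which makes angiotensin II, was detected in 8 EC cells and in no TB cell, and AGT and AGTR2 had no count in any cell. At this depth, 0 counts in the summed TB libraries allow a level of up to 0.0311 CPM (3 counts, counting error only). AGTR1 was detected in 3 TB cells.

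Other GABA-A receptor subunits and genes of GABA handling, the setting of GABRP, were measured as well. Of 16 other GABA-A receptor subunits with rows, 5 passed the minimum, 3 were past 4-fold in TB and 1 in EC, and 6 had no count in any cell. Among all 12752 genes past the minimum, 10.9% were past 4-fold in TB and 7.83% in EC, and 5 genes are few for a comparison. The subunits past 4-fold in TB were GABRA4 (9.09 ± 40.4 CPM), GABRA5 (4.29 CPM in 10 cells) and GABRA2 (3.26 CPM in 9 cells). The median of GABRA4 was 0.426 CPM in TB and 0.622 in EC, with detection in 28 of 48 TB and 24 of 38 EC cells. Its higher TB mean thus rested on a part of the cells. GABRE was higher in EC (10.2 against 0.229 CPM). Among 12 genes of GABA synthesis, breakdown, transport and receptor clustering, 6 passed the minimum. GAD1, which makes GABA, was higher in EC with 261 ± 335 against 15.2 ± 47.3 CPM. ABAT, which breaks GABA down, was higher in TB with 11.3 against 0.128 CPM, as was GABBR2 with 4.23 against 0.114 CPM. GABBR2 was detected in 9 TB cells. GABBR1 had 14.5 and 54.7 CPM and GPHN, the scaffold gephyrin, 7.07 and 6.19 CPM.

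The genes named next, neighbours on the same chromosomes, had smaller ratios. TRIM45, 21 kb from VTCN1, had 138 CPM in TB and 14 in EC (log2 ratio 3.21), and MAN1A2, 156 kb away on the other side, had 129 and 44 CPM (1.53). ELOVL6, 167 kb from ENPEP, had 341 and 256 CPM (0.42).

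TB 5, the cell lowest in VTCN1 in EQ and EQ-Vary, kept its values across the experiments. It had 140.1, 125 and 113 CPM of VTCN1 in EQ, EQ-Vary and EQ-75%, from 2997145 counts in EQ. In EQ it was the lowest TB cell in GATA3 (11.7 CPM, the others 35.6 to 601) and in ITGB6 (1.67 CPM, the others 5.20 to 1959). In EQ-Vary it was again lowest in GATA3, and 1 other TB cell was at or below it in ITGB6. It was the only TB cell with counts of CDX2 in EQ (16.7 CPM) and EQ-Vary (15.4 CPM). HAND1 at 184 CPM and KRT18 at 2211 CPM were within the range of the other cells. In EQ GATA2 and KRT19 of the shared list were high in TB 5, at 143 and 1701 CPM, with 46 and 42 of the 47 other cells at or below. DCN (1151 CPM) and PEG10 (194 CPM) were high as well, each with 44 of 47 at or below. PDGFRA at 78.4 CPM was the highest of the TB cells, with at most 76.4 in another. The genes named for TB 5 were picked after their values were seen.

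TB 48 had the lowest VTCN1 in EQ-75%, with 10 counts of 1086348, and 2.76 CPM of ENPEP. It was also lowest in TFAP2C (4.6 CPM, the others 14 to 1983) and COL3A1 (3.68 CPM, the others 55.3 to 1932). CLDN10, a claudin of the amnion list, had 4176 CPM, with at most 354 in another TB cell. TDGF1, a co-receptor of Nodal on the pluripotency list, had 1209.6 CPM, with at most 24 in another TB cell, while L1TD1 (9.21 CPM) and LIN28A (11 CPM) of that list were lowest in TB 48. CA2, a carbonic anhydrase, had 4089.8 CPM and ATP6V1A, a proton pump subunit, 4228 CPM, genes that were picked after their values were seen. CDX2 had 18.4 CPM, and KRT18 at 932 CPM and HAND1 at 119 CPM were within the range of the other cells, as was KDR at 0 CPM. In EQ and EQ-Vary its libraries held 8572 and 7784 counts, with 10 and 7 of VTCN1, so the values of this cell rest on 1 library.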

How the data were processed

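The deposited tables hold expected counts, not normalized by the authors, for 17492 protein-coding genes and 288 libraries. The reads had been trimmed, aligned to GRCh38 protein-coding genes by Bowtie 1.2.3 and assigned by RSEM 1.2.31, and the processing notes also name CASAVA 1.8.2. Reads shared between genes are split by RSEM, so counts need not be whole, and they were rounded. Of the sample columns, 0 were left unused. Cells with a log10 total count under 5.4 or over 31% of counts in their 50 most abundant genes were left out, as in the study. At 1 count, the counting error equals the value.

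CPM, detection (at least 1 count), log2 ratios of means (pseudocount 1) and r of log2(CPM + 1) were computed for all genes, and thinned cells were drawn to 500000 counts. No test was made, since each cell type in each experiment is 1 sample. The members and lists were chosen with earlier results of these data known. The text names, for each list, up to 4 genes of highest TB mean, the gene of highest EC mean, and each gene past 4-fold where there were 5 or fewer, and for each member the 5 genes of highest r, and further genes were named after their values were seen. A few genes that this rule names are not reported here. The computation of ratios and correlations was checked on simulated counts with known changes. Lengths and coordinates were from GENCODE on GRCh38, and promoters from RefSeq on GRCh38.p14. Figures were drawn with matplotlib 3.10.9 in Python 3.11.15, and the arithmetic used scipy 1.17.1, pandas 2.3.3 and numpy 2.4.6.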

Additional observations from a re-analysis of the deposited data

How the results depend on the processing

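Of 46 alternative values, 29 moved by less than the spread (the SD over the 3 experiments for log2 ratios and r, the exact interval for detection), 17 moved further and 0 changed sign. A share of detection cannot change sign, and the log2 ratios are large by the choice of the genes. The count of sign changes therefore says little except for r. The log2 ratio of VTCN1 (7.94) was 5.51 over all cells, those that did not pass included, 8.25 with a pseudocount of 0.1 and 8.23 in EQ-75%. That of ENPEP (6.41) was 4.96 over all cells, 6.14 with size factors, 6.89 with a pseudocount of 0.1, 6.67 without the highest cell of each type and 6.72 in EQ-75%. Detection of VTCN1 in EC (100%) was 65.8% at 5 or more counts and 81.1% at 500000 counts per cell. Detection of ENPEP in EC (76.3%) was 15.8% at 5 or more counts, 51.4% at 500000 counts and 59.0% in EQ-75%. The r of VTCN1 with ENPEP over TB cells (0.26) was 0.13 with size factors, 0.35 without the 2 cells farthest from the median and 0.33 in EQ-75%. Without TB 5 and TB 48, an alternative chosen after seeing the data, it was 0.33. TB 48 had not passed the limits in EQ, so this alternative left out TB 5 alone. The cause of these moves was not tested. With no minimum level, the same 1392 genes past 4-fold in TB were 7.96% of 17492. Differences between experiments were taken within cells. Depth limits statements on genes with a few counts in EC.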
